A study of Mus musculus with 8 samples.

Results

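The regions described here are the 3′ ends of long genes and the sequence just past them. A region runs from 10 kb before to 10 kb past the annotated end of a protein-coding gene of 20 kb or longer on chromosomes 1 to 19 of the mouse genome (build mm9, GENCODE vM1 annotation), and it was kept where no other annotated gene lies within 10 kb past the end. Of 9324 such ends, 4589 met the rule. The others were left out because a gene on the same strand (1648 ends) or on the opposite strand (3087 ends) lies within that distance. The genes kept have a median length of 59.4 kb (quartiles 33.2 and 123 kb), and 2276 lie on the plus strand and 2313 on the minus strand. In 264 of them another gene overlaps the last 10 kb, and in 497 the outermost annotated end, which was used here, is not the end shared by most transcripts. In 18 of the 4589 regions no library has a peak.

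The study mapped 4 histone marks in isografts of 2 lines of Lewis lung carcinoma (LLC), a mouse lung tumour. LLC-NR is drug sensitive, and LLC-R is resistant after repeated in vivo selection under VEGF-Trap, a decoy receptor that binds vascular endothelial growth factor. Both were grown under the skin of female C57BL/6J mice, the tumours were crosslinked with formaldehyde and their chromatin was cut with micrococcal nuclease, and H3K4me3, H3K9ac, H3K27me3 and H3K36me3 were immunoprecipitated from each with Abcam antibodies. There is 1 library for each line and mark, 8 in all, and the number of tumours behind a library is not given in the sources used here. No difference between lines was therefore tested, and line, tumour and library cannot be told apart. A tumour also holds host vessels, fibroblasts and leukocytes, and a mark carried by fewer cells and less of a mark per cell cannot be told apart. The labels give lung as the tissue, although the tumours grew subcutaneously.

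RNA polymerase II carries the methyltransferase Setd2, which trimethylates lysine 36 of histone H3 in the nucleosomes it passes, so H3K36me3 covers the bodies of transcribed genes and grows towards their 3′ part. Transcription runs on past the annotated end: the nascent RNA is cut behind a polyadenylation signal, usually AATAAA or its variant ATTAAA, and the polymerase is released some distance downstream. H3K27me3, set by Polycomb repressive complex PRC2, marks silent chromatin, and H3K36me3 on the same tail hinders PRC2. H3K4me3 and H3K9ac mark promoters of active genes.

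The sequences below are the last 30 bases of 5 gene ends that return in the results, shown because they place the annotated end within 30 bases of a signal. Capitals mark the signal hexamer, all are written 5′ to 3′ on the strand of the gene, and coordinates are mm9. The first 3 ends belong to genes with more H3K36me3 peaks in the body than in the flank, the last 2 to genes with fewer.
Eef2k, chr7:128050704-128050733, plus strand: ttccAATAAAgaaagcctttccgacctggc
Rpn1, chr6:88055269-88055298, plus strand: ttcaagaatgAATAAAcgagatgaatatac
Shb, chr4:45436150-45436179, minus strand: ggtgtgtaAATAAAatagtcatttaatata
Bmper, chr9:23289617-23289646, plus strand: tgtagtaAATAAAaggcttaagatttaagc
Vipr2, chr12:117384705-117384734, plus strand: atatacttcAATAAAccttatttcattctg
The hexamer was searched in the last 50 bases of all 4589 ends. AATAAA was found on the strand of the gene in 2730 ends (59.5%), ATTAAA without AATAAA in 681 (14.8%) and neither in 1178 (25.7%). In the 4735 ends that were left out, AATAAA was found in 60.5%. On the other strand of the same 50 bases AATAAA was found in 7.80% of the 4589 ends, and in the 50 bases that end 10 kb past the end it was found in 3.73% on the strand of the gene and in 3.07% on the other strand. ATTAAA, counted with or without AATAAA, was found in 18.7% and 6.86% of the last 50 bases on the 2 strands, and in 2.59% and 2.18% of the 50 bases 10 kb further on. The annotated ends thus sit close to the letters of a polyadenylation signal in most cases, whereas the far end of the region does not.

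A peak in these files is a position of 147 bp called by GeneTrack, with no height, so the measure is the number of peaks whose midpoint lies in a window. Peaks of a library never overlap, which leaves room for at most 34 in 5 kb. The libraries hold between 5660458 and 9101721 peaks, covering 33.2% to 53.0% of chromosomes 1 to 19. For H3K27me3 and H3K36me3 the LLC-R libraries hold more peaks (9101721 and 8747519) than the LLC-NR libraries (7245090 and 6432447), so their counts stand closer to that ceiling. In every comparison below, the body is the last 5 kb of the gene, the near flank is 0 to 5 kb past the end and the far flank is 5 to 10 kb past the end.

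H3K36me3 fell past the end of the gene in both lines. In LLC-NR the mean was 15.7 ± 4.82 peaks in the body, 14.3 in the near flank and 12.7 ± 4.55 in the far flank (SD over the 4589 ends), a log2 ratio of body to far flank of 0.31 (95% interval 0.29 to 0.32). In LLC-R the means were 19.3 ± 3.86, 18.5 and 17.3 ± 4.91 peaks, a log2 ratio of 0.16 (0.15 to 0.17). Intervals here and below treat peaks as independent counts and cover counting error only. They leave out that body and flank are paired and that peaks never overlap. An interval that includes 0 therefore does not show that body and flank are alike. More peaks lay in the body than in the far flank at 68.3% of the ends in LLC-NR (exact binomial interval 66.9% to 69.6%) and at 61.3% in LLC-R (59.9% to 62.7%). The spread between ends was wide: the difference of a single end had an SD of 4.97 peaks in LLC-NR against 4.599 in LLC-R, larger than the mean difference.

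Taken as a profile in 500-bp bins, H3K36me3 rose slightly towards the end and then declined over the whole near flank. Relative to the mean density of the library on chromosomes 1 to 19, the LLC-NR profile stood at 1.19 in the bin 10 kb before the end, at 1.24 in the bin that starts 1.5 kb before it, at 1.23 in the first bin past it, at 1.09 in the bin that starts 2.5 kb past it and at 0.977 at 9.5 kb. The LLC-R profile stood at 1.08, 1.12, 1.13, 1.05 and 0.989 in the same bins. The rise before the end was not particular to H3K36me3. From the first to the second of these bins H3K4me3 went from 1.04 to 1.10, H3K9ac from 1.08 to 1.13 and H3K27me3 from 0.98 to 1.06 in LLC-NR. In LLC-R H3K4me3 stayed at 1.09, H3K9ac went from 1.08 to 1.11 and H3K27me3 from 1.01 to 1.07. The first bin lying below the midpoint of the body and far-flank means was centred 2.75 kb past the end in both lines. With 100-bp bins it was centred 2.25 kb past the end in LLC-NR, compared with 1.75 kb in LLC-R.

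**Figure D1:**
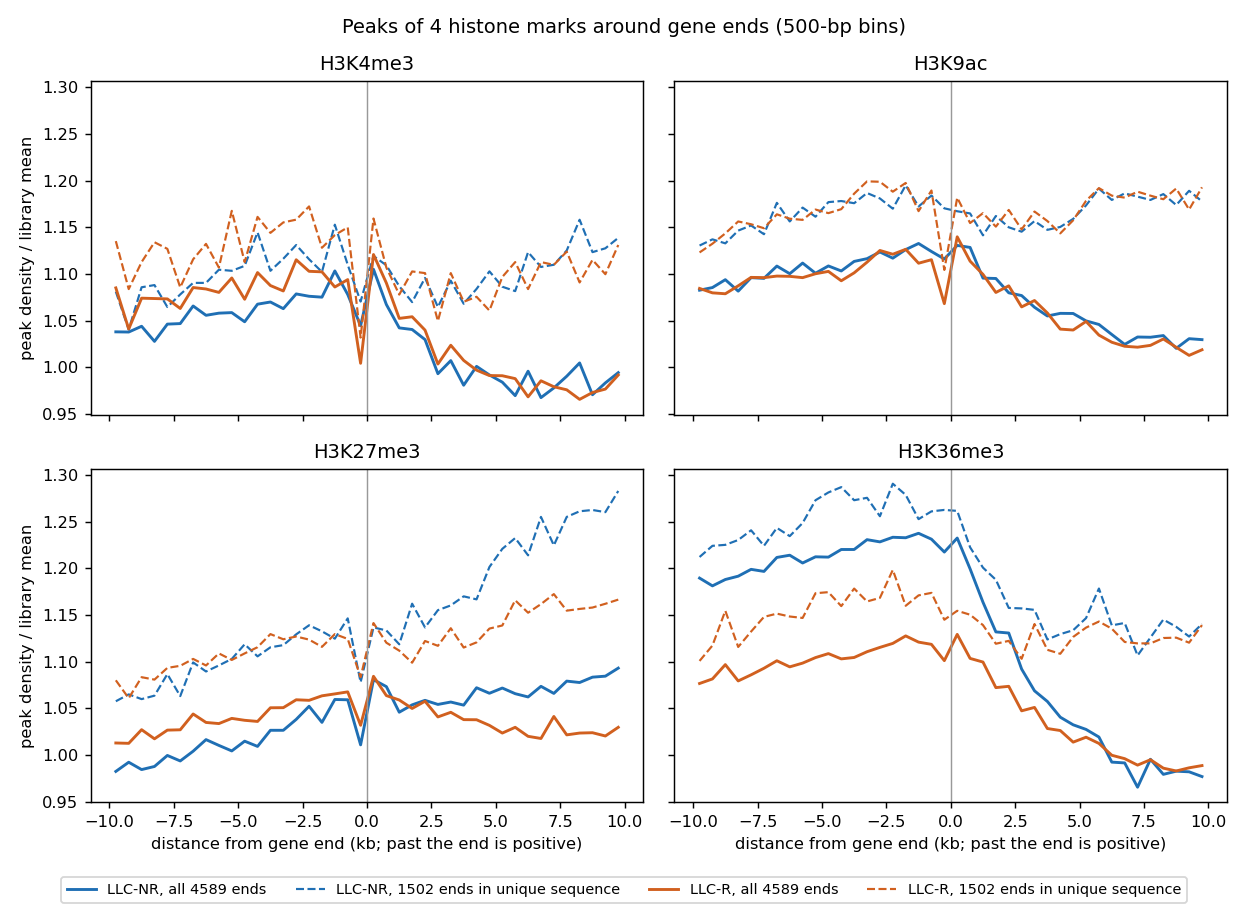
Mean density of peak midpoints in 500-bp bins, relative to the mean density of each library, against distance from the gene end (kb, past the end positive), for LLC-NR (blue) and LLC-R (orange). Solid lines are all 4589 ends and broken lines the 1502 ends whose body and far flank are at least 95% unique sequence. In the solid lines H3K36me3, H3K4me3 and H3K9ac all lie lower 10 kb past the end than at it. In the broken lines H3K4me3 and H3K9ac end near their level before the end, H3K36me3 falls, and H3K27me3 rises, more so in LLC-NR.

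The other marks were not level either. H3K4me3 had 12.1 ± 3.60 peaks in the body and 11.1 ± 4.19 in the far flank in LLC-NR against 12.2 ± 3.41 and 11.0 ± 3.92 in LLC-R, log2 ratios of 0.12 and 0.15. H3K9ac had 19.04 ± 3.97 and 17.6 ± 5.33 peaks in LLC-NR, compared with 17.3 ± 3.81 and 16.1 ± 4.97 in LLC-R, log2 ratios of 0.11 in both. H3K27me3 had 14.9 ± 4.75 peaks in the body and 15.5 ± 5.34 in the far flank in LLC-NR, log2 -0.058, and 18.96 ± 3.83 and 18.5 ± 5.12 in LLC-R, log2 0.037. H3K4me3 and H3K9ac thus declined over the same sequence as H3K36me3.

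That sequence differs in how much of it can be read uniquely, and only uniquely mapped reads were used for the files. For each bin the share of 36-base words that occur once in the genome was counted, a measure added after the profiles had been seen. It was 92.6% in the body, 89.0% in the near flank and 84.8% in the far flank on average, and it was highest, at 93.9%, in the 500 bp before the end. In 418 ends less than 50% of the far flank was unique, against 142 ends for the body. Across ends the difference in unique share went with the difference in peaks in all 8 libraries, with Spearman's rho from 0.43 to 0.64 over the 4589 ends, which share sequence between libraries. G+C was 43.6% in body, near flank and far flank alike.

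Set against unique sequence, the marks separated in LLC-NR and less so in LLC-R. Dividing each bin by its unique share gave, in LLC-NR, H3K36me3 densities of 1.32 in the body, 1.25 in the near flank and 1.17 in the far flank relative to the library mean, and in LLC-R 1.202, 1.195 and 1.17. H3K27me3 went the other way, from 1.12 to 1.19 and 1.27 in LLC-NR and from 1.14 to 1.18 and 1.21 in LLC-R. H3K4me3 stood at 1.16, 1.15 and 1.16 in LLC-NR against 1.17, 1.17 and 1.16 in LLC-R. H3K9ac stood at 1.21, 1.22 and 1.22 in LLC-NR, compared with 1.196, 1.21 and 1.21 in LLC-R.

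**Figure D2:**
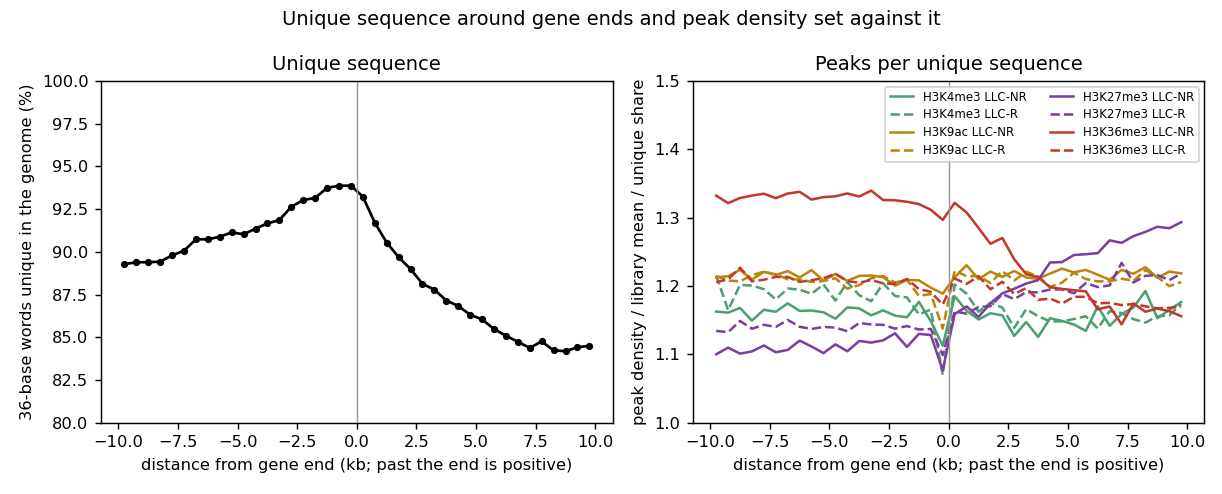
Left, mean share of 36-base words that occur once in the genome, in 500-bp bins around 4589 gene ends (percent, axis from 80). Right, peak density relative to the library mean and divided by that share, for 4 marks in LLC-NR (solid) and LLC-R (broken), against distance from the gene end in kb. Unique share peaks at the end and falls to about 84.5% at 9.5 kb past it. On the right, H3K36me3 declines past the end (from a higher level in LLC-NR), H3K27me3 climbs, and H3K4me3 and H3K9ac run level but for a dip at the end itself.

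The same picture was given by the 1502 ends of which body and far flank were both at least 95% unique. H3K36me3 had 16.3 ± 3.92 peaks in the body and 14.6 ± 3.11 in the far flank in LLC-NR, log2 0.16 (0.13 to 0.19), and 20.3 ± 2.02 and 19.6 ± 1.84 in LLC-R, log2 0.051 (0.028 to 0.074). More H3K36me3 peaks lay in the body at 62.4% of these ends in LLC-NR and at 53.8% in LLC-R, against 27.1% and 31.3% with more in the flank. H3K27me3 had 16.1 ± 3.902 and 17.9 ± 3.18 peaks in LLC-NR, log2 -0.15 (-0.18 to -0.13), and 20.2 ± 1.97 and 20.9 ± 1.79 in LLC-R, log2 -0.052 (-0.074 to -0.029). More H3K27me3 peaks lay in the far flank at 62.6% of these ends in LLC-NR and at 53.5% in LLC-R, against 25.5% and 30.1% with more in the body. For H3K4me3 the log2 ratio was -0.0034 in LLC-NR against 0.036 in LLC-R, and for H3K9ac it was -0.0035 and -0.0093. In unique sequence the gene end thus divided H3K36me3 from H3K27me3 in both lines, whereas H3K9ac did not differ between body and flank beyond counting error in either line. H3K4me3 did not differ so in LLC-NR (-0.033 to 0.026). In LLC-R it fell past the end, and its interval (0.0068 to 0.065) overlapped that of H3K36me3. The midpoint of the H3K36me3 fall was nearer in these ends, centred 1.25 kb past the end in both lines. The profile of all 4589 ends divided by the share of unique sequence had it at 2.75 kb in LLC-NR against 3.75 kb in LLC-R. The midpoint lies in the near flank, which the 95% limit did not cover. At the 1502 ends the near flank held fewer H3K9ac peaks in LLC-NR (19.7) than body and far flank (20.1 each). In LLC-R its H3K36me3 mean (19.56) was as low as that of the far flank (19.58). The part of near-flank sequence in the nearer midpoint was not tested.

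For H3K36me3 the LLC-NR ratio went from 0.31 over all ends to 0.16, and for LLC-R from 0.16 to 0.051. For H3K27me3 it went from -0.058 to -0.15 in LLC-NR and changed sign in LLC-R, from 0.037 to -0.052. The 1502 ends are a selection, and whether they differ from the other ends in more than their sequence was not tested.

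H3K36me3 and H3K27me3 were also set against each other end by end. In LLC-NR, 647 of the 1502 ends in unique sequence (43.1%) had more H3K36me3 in the body together with more H3K27me3 in the far flank, and 133 (8.85%) had the reverse. Among the 937 ends with more H3K36me3 in the body, H3K27me3 was higher in the flank in 69.1%, compared with 50.6% of the 407 ends with more H3K36me3 in the flank. In LLC-R, 443 ends (29.5%) had H3K36me3 higher in the body and H3K27me3 higher in the flank, and 141 (9.39%) the reverse. The corresponding shares with H3K27me3 higher in the flank were 54.8% of 808 and 52.1% of 470 ends. Spearman's rho of the 2 differences over the 1502 ends was -0.28 in LLC-NR, compared with -0.024 in LLC-R. Over all 4589 ends, which differ more in unique sequence, rho was 0.10 and 0.41.

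Single ends were called where the number of peaks plus 1 differed at least 1.5-fold between body and far flank, and each share of the 4589 ends is set beside the share of all 9324. For H3K36me3 in LLC-NR, 1122 ends (24.4%) were called higher in the body, beside 19.9% of all ends, and 185 (4.03%) higher in the flank, beside 4.62%. In LLC-R the numbers were 491 (10.7%, all ends 6.79%) and 67 (1.46%, all ends 1.56%). For H3K27me3 in LLC-NR, 507 ends (11.05%) were higher in the body and 622 (13.6%) in the flank, beside 10.4% and 14.5% of all ends. In LLC-R 413 (9.0%) and 120 ends (2.61%) were so called, beside 5.86% and 2.5% of all ends. For H3K4me3 the calls were 808 and 362 in LLC-NR (17.6% and 7.89%, all ends 12.9% and 10.8%), compared with 781 and 277 in LLC-R (17.02% and 6.04%, all ends 11.9% and 7.48%). For H3K9ac they were 494 and 104 in LLC-NR (10.8% and 2.27%, all ends 6.7% and 1.92%) against 525 and 109 in LLC-R (11.4% and 2.38%, all ends 7.21% and 2.37%). Within the 1502 ends in unique sequence the H3K36me3 calls in LLC-NR were 155 in the body (10.3%) and 48 in the flank (3.20%), where the 3561 of all ends in unique sequence gave 11.1% and 3.79%. In LLC-R they were 5 (0.333%) and 0, beside 0.253% and 0.0562% of the 3561. Calls of H3K36me3 were thus not more frequent in LLC-NR at the 4589 ends than at all ends once the sequence was unique. The H3K27me3 calls were 21 (1.398%) and 167 (11.1%) in LLC-NR, beside 5.05% and 12.3% of the 3561, and 0 and 0 in LLC-R, beside 0.140% and 0.281%. H3K9ac calls came down to 3 (0.200%) and 2 (0.133%) in LLC-NR, beside 0.140% and 0.0562% of the 3561. In LLC-R they came down to 5 (0.333%) and 4 (0.266%), beside 0.309% and 0.253%.

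The ends with the largest H3K36me3 difference over both lines had almost no unique sequence in the far flank. Snrnp40, a subunit of the U5 snRNP of the spliceosome, had 22 H3K36me3 peaks in the body, 9 in the near flank and 0 in the far flank in LLC-NR against 25, 11 and 0 in LLC-R. Its far flank also held 0 peaks of every other mark in both lines, and 0% of it was unique. Gtf3c3, a subunit of the RNA polymerase III factor TFIIIC, had 24, 16 and 0 H3K36me3 peaks in LLC-NR, compared with 21, 18 and 0 in LLC-R, again with 0 peaks of the other marks and 0% unique far flank. Nus1, Slc39a6, Ipp, Tmem123, Tbx15 and Mut complete the 8 largest, with 0 to 8.44% of the far flank unique. The 5 largest differences in the other direction, at Zbed4, Sprr2a3, Gm16427, Mrgpra2b and Cyp3a41b, had a body of which 4.3% to 11.6% was unique. The same ranking was therefore repeated among the ends in unique sequence, after the values had been seen.

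Peak counts of single genes are given in the order body, near flank, far flank. Among the 1502 ends the 8 with the largest H3K36me3 fall were Eef2k, Shb, Txnl1, Rpn1, Auh, Chsy1, Dhx37 and Stt3b. Eef2k, the kinase that phosphorylates elongation factor 2, had 21 H3K36me3 peaks in the body, 13 in the near flank and 8 in the far flank in LLC-NR against 23, 16 and 14 in LLC-R. Over the same 3 windows Eef2k had 23, 21 and 20 H3K9ac peaks in LLC-NR, compared with 21, 14 and 22 in LLC-R, and 15, 13 and 11 H3K27me3 peaks in LLC-NR against 19, 21 and 18 in LLC-R. H3K36me3 thus stepped down in both libraries, while H3K9ac in the far flank was 3 peaks lower than in the body in one and 1 higher in the other. Rpn1 and Stt3b encode subunits of the oligosaccharyltransferase, which attaches glycans to proteins in the endoplasmic reticulum. Rpn1 had 20, 13 and 7 H3K36me3 peaks in LLC-NR, compared with 21, 23 and 18 in LLC-R, beside 14, 18 and 20 H3K27me3 peaks in LLC-NR against 18, 20 and 22 in LLC-R. Stt3b, the catalytic subunit, kept its body level through the near flank in LLC-NR (20, 20 and 9) and nearly so in LLC-R (24, 22 and 18). The far flank of these 8 ends held 6 to 9 peaks in LLC-NR, compared with 14 to 19 in LLC-R.

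Shb, an adaptor protein that binds activated tyrosine kinase receptors including VEGF receptor 2, had 18, 12 and 6 H3K36me3 peaks in LLC-NR against 21, 22 and 16 in LLC-R. Auh, an enzyme of leucine breakdown that also binds AU-rich RNA, had 19, 11 and 7 in LLC-NR, compared with 22, 22 and 18 in LLC-R. Chsy1, a chondroitin synthase, had 20, 16 and 8 in LLC-NR against 23, 21 and 18 in LLC-R. Dhx37, an RNA helicase of ribosome assembly, had 22, 13 and 8 in LLC-NR, compared with 22, 21 and 19 in LLC-R, and its far flank carried 23 and 20 H3K4me3 peaks against 11 and 14 in the body.

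In the opposite direction stood Ncam2, Bmper, 1700028P14Rik, Rasgef1a and Vipr2. Ncam2, a neural cell adhesion molecule, had 5, 13 and 15 H3K36me3 peaks in LLC-NR against 17, 20 and 24 in LLC-R. Bmper, a secreted regulator of bone morphogenetic proteins found in endothelium, had 8, 12 and 17 in LLC-NR, compared with 18, 20 and 21 in LLC-R. Vipr2, a receptor for vasoactive intestinal peptide, had 7, 13 and 15 in LLC-NR against 19, 18 and 20 in LLC-R. In each of these the low value was the body in LLC-NR, and no body value of the 5 exceeded 11 peaks there, while the 8 genes of the first group had 18 to 22. Both groups were chosen by the ratio of these same counts, so this contrast follows in part from the choice. H3K27me3 in the body was 12 peaks at Ncam2, 18 at Bmper, 17 at 1700028P14Rik, 20 at Rasgef1a and 18 at Vipr2 in LLC-NR, where the 1502 ends had a mean of 16.1.

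**Figure D3:**
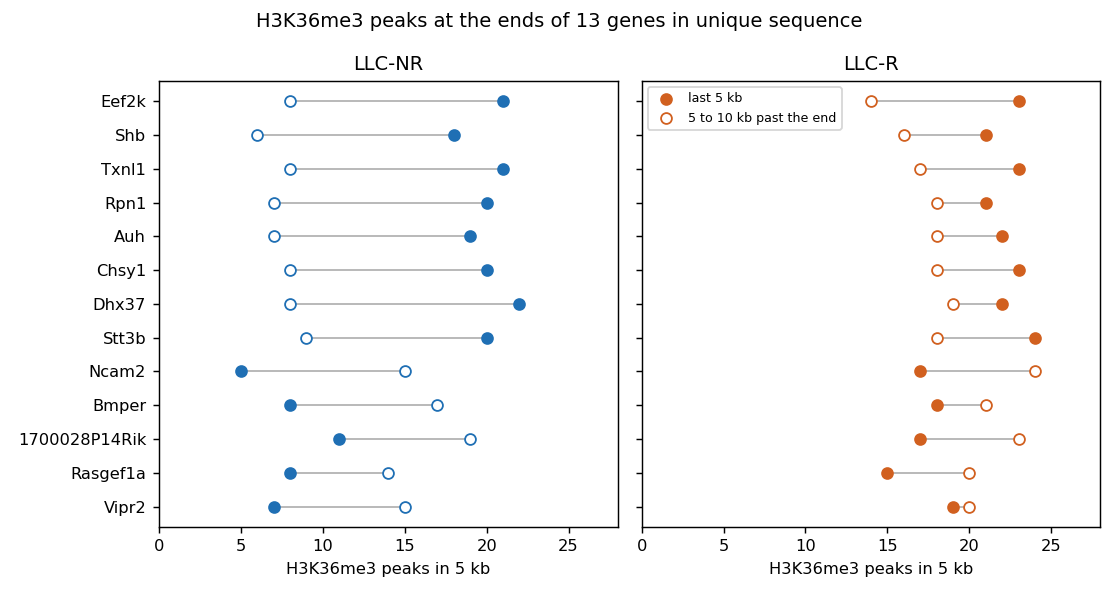
H3K36me3 peaks in the last 5 kb (filled) and 5 to 10 kb past the end (open) of 13 genes whose body and far flank are in unique sequence, in LLC-NR (left, blue) and LLC-R (right, orange). The upper 8 genes have the largest fall and the lower 5 the largest rise over both lines, by the rule that chose them. In LLC-NR the values run from 5 to 22 peaks, and in LLC-R they lie between 14 and 24.

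H3K27me3 gave its own ranking in unique sequence. The 3 ends with the largest rise past the end were Sept9, Cdca2 and Dcp1b. Sept9, a septin of the cytoskeleton, had 7, 16 and 21 H3K27me3 peaks in LLC-NR, compared with 16, 19 and 21 in LLC-R, and its H3K36me3 peaks ran the other way in the same windows with 22, 16 and 10 in LLC-NR against 22, 19 and 19 in LLC-R. Cdca2, a regulator of protein phosphatase 1 on chromatin in mitosis, had 7, 15 and 20 H3K27me3 peaks in LLC-NR, compared with 17, 23 and 22 in LLC-R, beside 20, 16 and 11 and 23, 19 and 17 H3K36me3 peaks. Dcp1b, of the mRNA decapping complex, had 7, 15 and 20 and 17, 19 and 22 H3K27me3 peaks, beside 16, 15 and 11 and 21, 21 and 17 of H3K36me3. At all 3 ends, in both lines, H3K36me3 was lower in the far flank than in the body, as it was at 62.4% of the 1502 ends in LLC-NR against 53.8% in LLC-R.

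The state of the promoter, a readout that took no part in choosing the ends, went with what happened at the end of the gene. Promoters were counted for H3K4me3 in LLC-NR from 1 kb before to 0.5 kb past the start site, and the 4589 genes fell into 768 with 0 to 3 peaks, 1373 with 4 to 5 and 2448 with 6 or more. The H3K36me3 log2 ratio in LLC-NR was 0.15 (0.10 to 0.19), 0.23 (0.20 to 0.26) and 0.38 (0.36 to 0.40) in these classes. In LLC-R, whose promoters were not used for the classes, it was 0.12 (0.085 to 0.16), 0.15 (0.13 to 0.18) and 0.18 (0.16 to 0.19). H3K27me3 took the opposite order in LLC-NR, with 0.11, 0.045 and -0.17, and in LLC-R, with 0.096, 0.083 and -0.0041.

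In unique sequence the class with the least promoter H3K4me3 showed no H3K36me3 difference beyond counting error. At 210 ends with 0 to 3 promoter peaks, H3K36me3 had 13.6 ± 3.13 peaks in the body and 13.5 ± 2.998 in the far flank in LLC-NR, log2 0.0041 (-0.071 to 0.079), and -0.0082 (-0.071 to 0.055) in LLC-R. At 495 ends with 4 to 5 peaks the ratio was 0.058 (0.011 to 0.11) in LLC-NR against 0.029 (-0.012 to 0.069) in LLC-R. At 797 ends with 6 or more it was 17.8 ± 3.54 against 14.9 ± 3.20 peaks, log2 0.25 (0.22 to 0.29), in LLC-NR, compared with 0.080 (0.048 to 0.11) in LLC-R. The classes differed more in the body than in the flank: the far flank held 13.5, 14.5 and 14.9 peaks in the 3 classes in LLC-NR while the body held 13.6, 15.1 and 17.8. H3K27me3 at the same ends had log2 ratios of -0.033, -0.075 and -0.24 in LLC-NR against -0.021, -0.034 and -0.071 in LLC-R. The body held 17.6, 17.3 and 15.03 H3K27me3 peaks in the same line, and the far flank 18.03, 18.2 and 17.8.

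**Figure D4:**
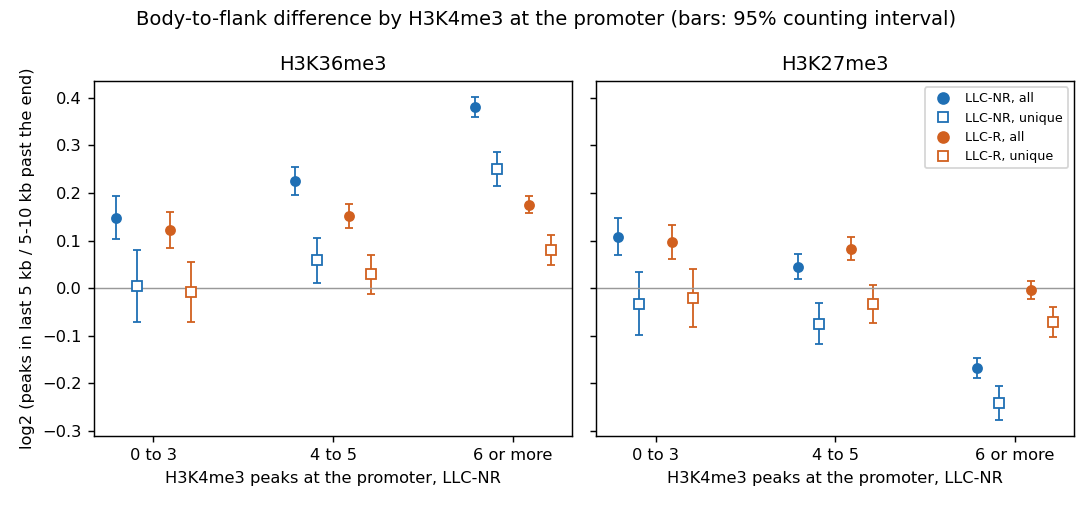
Log2 ratio of peaks in the last 5 kb to peaks 5 to 10 kb past the end for H3K36me3 (left) and H3K27me3 (right), by the number of H3K4me3 peaks at the promoter in LLC-NR, for LLC-NR (blue) and LLC-R (orange). Filled circles are all ends of a class, open squares those in unique sequence, and bars are 95% intervals for counting error. In unique sequence the ratio lies at 0 within its interval for both marks and lines in the lowest class, and away from 0 in the highest.

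Promoters with much H3K4me3 were split further by H3K27me3. Among genes with 6 or more H3K4me3 and 0 to 3 H3K27me3 promoter peaks, 402 in all and 98 in unique sequence, the latter had 18.8 ± 2.86 H3K36me3 peaks in the body and 14.7 ± 3.61 in the far flank in LLC-NR, log2 0.35, and 21.4 ± 1.63 and 19.8 ± 2.01 in LLC-R, log2 0.11. Their H3K27me3 was 13.03 ± 3.26 and 16.4 ± 3.31 peaks in LLC-NR, log2 -0.33, and 19.3 ± 2.09 and 20.3 ± 1.75 in LLC-R, log2 -0.078 (-0.17 to 0.013). Of these 98 ends, 82.7% had more H3K36me3 in the body in LLC-NR, compared with 60.2% in LLC-R. Where both marks had 6 or more promoter peaks (347 ends in unique sequence) the H3K36me3 ratio was 0.20 in LLC-NR against 0.060 in LLC-R, and the H3K27me3 ratio -0.18 and -0.063.

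Promoter CpG content ordered both marks in LLC-NR. In unique sequence the H3K36me3 ratio was 0.19, 0.096 and 0.064 in LLC-NR at 1050 CpG-rich, 270 intermediate and 182 CpG-poor promoters, and the H3K27me3 ratio was -0.20, -0.077 and -0.031. In LLC-R these were 0.062, 0.020 and 0.031 for H3K36me3 and -0.063, -0.031 and -0.015 for H3K27me3. By gene length, the H3K36me3 ratio in unique sequence was 0.16, 0.21 and 0.16 for genes of 20 to 50, 50 to 100 and 100 to 250 kb in LLC-NR, compared with 0.060 (-0.0068 to 0.13) for the 251 genes over 250 kb. In LLC-R it was 0.053, 0.061, 0.063 and 0.013.

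Classes by the polyadenylation signal at the end lay closer together than the classes by promoter H3K4me3. In unique sequence the H3K36me3 ratio was 0.19 (0.15 to 0.22) at 893 ends with AATAAA, 0.13 (0.064 to 0.20) at 227 with ATTAAA and 0.11 (0.059 to 0.16) at 382 with neither in LLC-NR against 0.059, 0.050 and 0.035 in LLC-R. The intervals of these classes overlapped. H3K27me3 gave -0.17, -0.18 and -0.10 in LLC-NR, compared with -0.053, -0.071 and -0.038 in LLC-R.

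At finer resolution the end itself stood out in every library. In the 100 bp just before the end, all 8 libraries dipped, to between 0.73 (H3K4me3 in LLC-R) and 1.07 (H3K36me3 in LLC-NR) times the library mean, and the 100 bp before that was raised to between 1.13 and 1.32. The dip was deeper at ends with AATAAA than at ends with neither hexamer in all 8 libraries, for example 0.68 against 0.86 for H3K4me3 and 0.75 against 1.004 for H3K9ac in LLC-R. G+C was 34.6% in the same 100 bp, the lowest of the region, compared with 41.1% in the 100 bp before and 41.0% in the 100 bp after. Micrococcal nuclease prefers to cut A- and T-rich DNA, and since base composition and position at the end move together here, their part in the dip cannot be told apart.

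**Figure D5:**
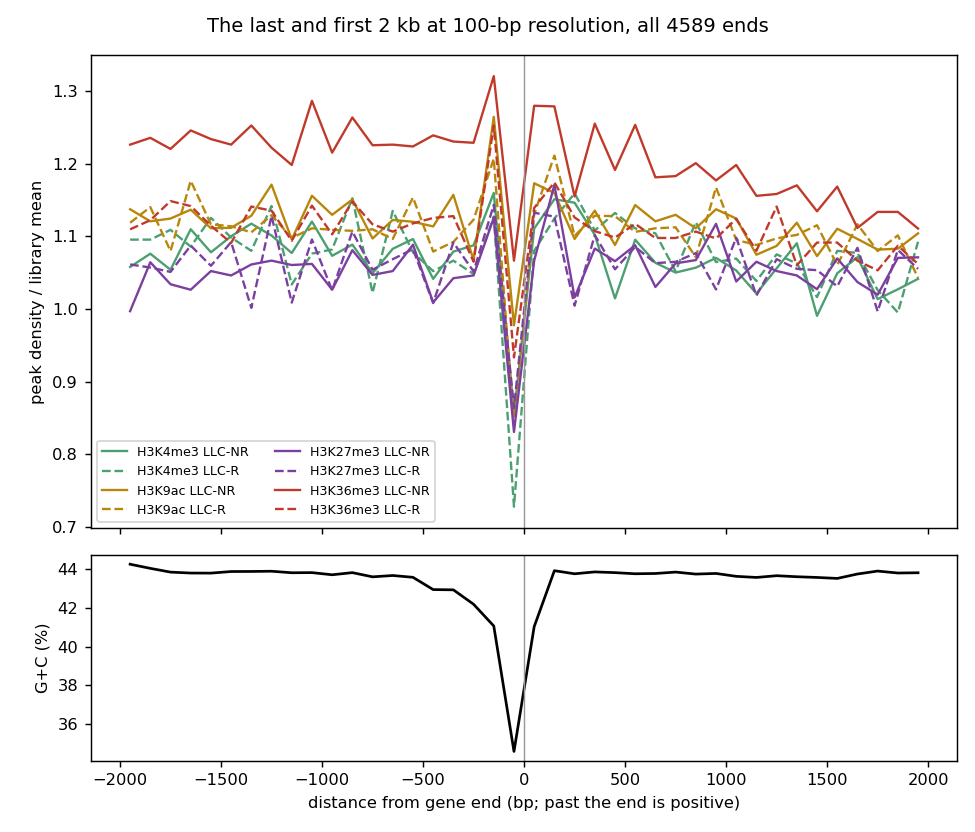
Upper, peak density relative to the library mean in 100-bp bins over the last and first 2 kb around 4589 gene ends, for 4 marks in LLC-NR (solid) and LLC-R (broken). Lower, G+C content (percent) of the same bins. All 8 lines dip in the bin just before the end, where G+C falls to 34.6%, and stand higher in the bin before it than at the dip.

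The body was then compared with other parts of the same genes and with sequence far from genes. In 4570 genes the last 5 kb held 15.7 ± 4.81 H3K36me3 peaks against 15.2 ± 4.62 from 2 to 7 kb past the start in LLC-NR, log2 0.049 (0.034 to 0.064), and 19.3 ± 3.84 against 19.1 ± 3.99 in LLC-R, log2 0.017 (0.0035 to 0.031). H3K4me3 went the other way, with log2 -0.22 in LLC-NR against -0.11 in LLC-R. More H3K36me3 peaks lay in the last 5 kb than near the start at 49.96% of the 4570 genes in LLC-NR, compared with 44.7% in LLC-R. A rise towards the end was thus not the rule for single genes, and unique sequence was not taken into account in this comparison. Against 203510 windows of 5 kb, all 10 kb or more away from annotated genes, H3K36me3 was 1.37 times as dense in the body, 1.24 times in the near flank and 1.11 times in the far flank in LLC-NR, compared with 1.18, 1.13 and 1.05 times in LLC-R. H3K27me3 stood at 1.05, 1.08 and 1.09 times in LLC-NR against 1.08, 1.08 and 1.05 in LLC-R. The far flank thus lay nearer to intergenic sequence than the body did for H3K36me3 in both lines, and these ratios carry the unique share of the windows with them.

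Chromosome by chromosome, the H3K36me3 ratio over all ends was above 0 on 19 of 19 chromosomes in each line, from 0.21 to 0.40 in LLC-NR and from 0.082 to 0.23 in LLC-R. The H3K4me3 and H3K9ac ratios over all ends were likewise above 0 on all 19 chromosomes in each line. Unique sequence was not taken into account in these values by chromosome. H3K27me3 was below 0 on all 19 in LLC-NR and above 0 on 17 of 19 in LLC-R. Between lines, the per-end log2 ratio of H3K36me3 had Spearman's rho of 0.58 over the 4589 ends, H3K27me3 0.59, H3K9ac 0.56 and H3K4me3 0.45. Both lines share the unique share of each end, which went with the peak difference within each library (rho 0.43 to 0.64). Its part in these rhos between lines was not tested. The LLC-R ratio of H3K36me3 was lower than that of LLC-NR by 0.15 over all ends and by 0.11 in unique sequence, and that of H3K27me3 higher by 0.096 and 0.10. Both differences are moves towards 0 in unique sequence, in the 2 marks whose LLC-R libraries hold more peaks, and the part of peak number in them was not tested. For H3K4me3 and H3K9ac, whose libraries are of similar size in the 2 lines, the ratios differed by 0.026 and -0.0032.

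Counts in the gene lists by role are read against the 4589 ends, of which 68.3% had more H3K36me3 peaks in the body in LLC-NR against 61.3% in LLC-R, with 24.4% and 10.7% called higher in the body. The median log2 of single ends for H3K36me3 was 0.25 in LLC-NR, compared with 0.082 in LLC-R over these ends and 0.18 and 0.067 over all 9324. Of 50 broadly expressed genes (splicing, cohesin and ubiquitin factors among them), 14 were members. All 14 had more H3K36me3 peaks in the body in LLC-NR against 13 in LLC-R, with medians of 0.43 and 0.27, and 5 of the 14 passed the 1.5-fold limit in LLC-NR against 1 in LLC-R. H3K27me3 was higher in the far flank at 53.7% of the 4589 ends in LLC-NR and at 46.0% in LLC-R. Among the 14 it was so in 10 in LLC-NR and in 12 in LLC-R. Nipbl, the loader of cohesin and the longest of them, had 20, 22 and 15 H3K36me3 peaks over body, near and far flank in LLC-NR, compared with 24, 21 and 20 in LLC-R, and 7, 14 and 14 H3K27me3 peaks in LLC-NR against 19, 18 and 21 in LLC-R. Trip12, Rock1, Usp7 and Smarca4, next in length, had 18 to 21 H3K36me3 peaks in the body and 6 to 16 in the far flank in LLC-NR, with 49.7% to 93.6% of the far flank unique. Dicer1, the nuclease of miRNA maturation, was named after its values were seen, as the only member of this list in unique sequence. It had 20, 17 and 16 H3K36me3 peaks in LLC-NR against 25, 19 and 20 in LLC-R, and 10, 17 and 20 and 17, 23 and 22 of H3K27me3.

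Long genes typical of neurons formed another list. Of 48 members, H3K36me3 was higher in the body in 26 and in the flank in 16 in LLC-NR, and in 25 and 18 in LLC-R, with medians of 0.10 and 0.064. In the 23 of them in unique sequence it was higher in the body in 11 and in the flank in 7 in LLC-NR, and in 12 and 10 in LLC-R, with means of 12.6 and 12.2 peaks in LLC-NR. Csmd1, of the 5 longest the only one in unique sequence, had 10, 15 and 8 H3K36me3 peaks in LLC-NR against 17, 17 and 21 in LLC-R. Ptprd, a receptor phosphatase of synapses, had 15, 15 and 14 in LLC-NR, compared with 17, 19 and 17 in LLC-R, and Cntnap2 and Dlg2 had 18 in the body in LLC-NR with 11 and 14 in the far flank. Lrp1b, a receptor of the LDL family, had 16, 11 and 1 in LLC-NR, compared with 17, 19 and 3 in LLC-R, but only 14.1% of its far flank was unique.

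Genes listed under H3K36 methylation or RNA 3′ ends were few among the members. Of 26 factors of 3′-end processing, 6 were members, and 5 of them had more H3K36me3 in the body in LLC-NR against 2 in LLC-R, with 1 called in LLC-NR, compared with 0 in LLC-R. Scaf8 had 17, 18 and 18 H3K36me3 peaks in LLC-NR against 21, 21 and 21 in LLC-R, and Papolg had 20 in the body and 17 in the far flank in LLC-NR. Papola, the poly(A) polymerase, had 23, 19 and 18 H3K36me3 peaks in LLC-NR against 22, 22 and 23 in LLC-R. Cpsf6, a subunit of cleavage factor I, had 23, 18 and 17 in LLC-NR, compared with 23, 21 and 20 in LLC-R. Of 25 genes listed under writing, erasing and reading of H3K36 methylation, not all of which do so themselves, 6 were members. All 6 were higher in the body in LLC-NR against 4 in LLC-R. Iws1, a partner of the elongation factor Spt6 and the only one of the 6 in unique sequence, had 20, 20 and 18 peaks in LLC-NR, compared with 20, 21 and 18 in LLC-R. Setd3, Kdm4c, Dnmt3a and Zmynd11 had 16 to 22 peaks in the body and 11 to 15 in the far flank in LLC-NR, and Morf4l1 was the other.

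The study's interest in angiogenesis gave a list of 41 genes, of which 20 were members. H3K36me3 was higher in the body in 13 and in the flank in 6 of the 20 in LLC-NR, and in 10 and 7 in LLC-R, where 68.3% and 61.3% of the 4589 ends were higher in the body. In LLC-NR 6 were called higher in the body and 1 in the flank, against 2 and 0 in LLC-R, where the shares of the 4589 ends were 24.4% and 4.03% in LLC-NR, compared with 10.7% and 1.46% in LLC-R. In the 10 in unique sequence it was higher in the body in 5 and in the flank in 4 in LLC-NR, and in 4 and 3 in LLC-R. Nrp1, a co-receptor for VEGF, had 20, 18 and 14 H3K36me3 peaks in LLC-NR against 24, 17 and 17 in LLC-R. Pdgfra, a receptor for platelet-derived growth factor, had 19, 17 and 11 in LLC-NR, compared with 21, 17 and 19 in LLC-R. Pdgfc, a ligand of this family, had 21, 22 and 17 in LLC-NR against 23, 19 and 18 in LLC-R. Vegfc, a ligand of the receptor encoded by Flt4, had 20, 15 and 17 in LLC-NR against 21, 19 and 22 in LLC-R, higher in the body in LLC-NR and in the flank in LLC-R by 1 peak. Cacna1g, a calcium channel subunit, had 10, 10 and 19 in LLC-NR, compared with 21, 16 and 21 in LLC-R. Kdr, VEGF receptor 2, had 14, 9 and 15 in LLC-NR against 20, 20 and 20 in LLC-R. The other 4 in unique sequence, Angpt1, Fgf18, Epas1 and Efnb2, had 11 to 14 peaks in the body and 13 to 15 in the far flank in LLC-NR, compared with 17 to 20 and 17 to 21 in LLC-R. Outside unique sequence, Flt1, Flt4, Nrp2, Pdgfa, Pdgfd, Pdgfrb, Fgfr2 and Lepr had 9 to 21 peaks in the body and 8 to 17 in the far flank in LLC-NR, with 76.5% to 98.6% of the far flank unique. At Tek, the angiopoietin receptor, the far flank held 0 or 1 peak of each mark in every library and was 5.64% unique, while the body held 15 H3K36me3 peaks in LLC-NR, compared with 18 in LLC-R. Wnt2, with 17, 16 and 8 in LLC-NR, compared with 20, 21 and 12 in LLC-R, had a far flank that was 64.3% unique.

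Among markers of other cell types, members were 3 of 7 for leukocytes, 7 of 7 for endothelium, 5 of 7 for fibroblasts and 4 of 7 for lung epithelium. H3K36me3 was higher in the body in 3 of 3, 3 of 7, 3 of 5 and 3 of 4 of them in LLC-NR, and in 3, 4, 3 and 2 in LLC-R. Ptprc (CD45) had 22, 18 and 6 peaks in LLC-NR against 22, 20 and 7 in LLC-R, with 36.1% of its far flank unique. Of the fibroblast genes, Col3a1 had 22, 22 and 15 peaks in LLC-NR against 21, 20 and 19 in LLC-R (far flank 91.1% unique), whereas Col1a2 had 15, 19 and 19 against 18, 20 and 18 (97.4%) and Fap 12, 16 and 12 against 17, 18 and 20 (96.1%). Of the endothelial genes, Pecam1 had 14, 11 and 17 in LLC-NR, compared with 19, 17 and 20 in LLC-R (86.2%), and Erg 9, 11 and 7, compared with 17, 20 and 13 (87.3%). The files hold no measure of expression, so the part of host cells in these values was not tested.

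Over the 4735 ends left out by the rule the H3K36me3 ratio was 0.15 in LLC-NR, compared with 0.057 in LLC-R, whereas the 4589 ends gave 0.31 and 0.16. The H3K27me3 ratio in LLC-NR was -0.073 over the 4735 ends, compared with -0.058 over the 4589. In unique sequence (2059 ends) the H3K36me3 ratio was 0.11 (0.085 to 0.13) in LLC-NR and 0.032 (0.013 to 0.051) in LLC-R, compared with 0.16 and 0.051. The H3K27me3 ratio there was -0.072 and -0.017, compared with -0.15 and -0.052. The 606 of these 2059 ends with a neighbour on the same strand had H3K36me3 ratios of 0.16 (0.12 to 0.20) in LLC-NR against 0.047 in LLC-R, close to the 0.16 and 0.051 above, and the 1453 with one on the opposite strand had 0.087 (0.062 to 0.11) and 0.026. Where the neighbour lay on the opposite strand and its own facing 3′ end was more than 5 kb away (279 ends in unique sequence), the far flank gave a H3K36me3 ratio of 0.053 (-0.0053 to 0.11) in LLC-NR against -0.0075 in LLC-R. A same-strand neighbour that begins beyond 5 kb (206 ends) gave 0.26 and 0.085, with more H3K4me3 in the far flank, which then holds the start of the neighbour (LLC-NR 13.2 in the body and 16.5 in the far flank, LLC-R 13.2 and 15.5). The lines have 1 library each, so the differences between these groups of ends carry counting intervals but no test over samples.

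At 216 genes of 20 to 22 kb the H3K36me3 ratio was 0.33 in LLC-NR, compared with 0.19 in LLC-R, and at 232 genes of 18 to 20 kb, just under the limit, 0.37 and 0.18. At 341 ends with the next gene 10 to 12 kb away it was 0.29 and 0.13, and at 444 ends with the next gene 8 to 10 kb away 0.26 and 0.090. The H3K27me3 ratio was -0.019 in LLC-NR against 0.072 in LLC-R at 20 to 22 kb, and -0.10 against 0.022 at 18 to 20 kb. With the next gene 10 to 12 kb away it was -0.046 (-0.10 to 0.010) in LLC-NR against 0.031 in LLC-R, and with the next gene 8 to 10 kb away -0.15 (-0.20 to -0.10) against -0.025. None of these values near the limits of the rule took unique sequence into account.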

How the data were processed

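Positions were taken as the authors deposited them: per the study's methods, reads were aligned to mm9 with Bowtie 0.12.7, uniquely mapped reads were kept and peaks of nucleosome width were called with GeneTrack, whose settings and the read length are not given in the sources used here. The deposited files give the start and end of each peak, all 147 bp wide and none overlapping, without height or read count, so depth behind a single peak is unknown and only its presence was counted.

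Samples were grouped by line and mark from their titles, 1 library per group. Peak midpoints (columns 2 and 3) were counted in 500-bp bins and in the last 5 kb, 0 to 5 and 5 to 10 kb past the outermost annotated end (GENCODE vM1, whose build is mm9). Profiles were divided by the mean density of the library on chromosomes 1 to 19. Ratios are of mean peaks over ends, with 95% Clopper-Pearson intervals of the share. A call is 1.5-fold with 1 added to each count. Promoters run from 1 kb before to 0.5 kb past the start shared by most transcripts, and within them CpG-rich ones hold a 500-bp stretch with at least 55% G+C and an observed-to-expected CpG ratio of 0.6, CpG-poor ones none with 0.4. Unique sequence was counted as 36-base words that occur once on either strand of the reference, as a stand-in for reads of unknown length.

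Members, lists and classes were chosen with earlier results of these data known. Named genes were the 8 largest and 5 lowest H3K36me3 ratios averaged over lines, 3 each for the other marks, 3 each way for the H3K36me3 difference between lines, and up to 5 list members per list by length with all angiogenesis genes, some given only as a range. Dicer1, the extremes in unique sequence, the check on base composition and those on unique sequence were chosen after seeing the data. Window counts were tested on simulated peaks with known ratios. Counting used pandas 2.3.3 and NumPy 2.4.6 under Python 3.11.15, intervals SciPy 1.17.1 and plots Matplotlib 3.10.9. Windows, gene length, neighbour distance, baseline, fold, pseudocount and scaling were varied. No replicates exist, so no p-values are given.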

Additional observations from a re-analysis of the deposited data

Results flagged for a closer look

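The H3K27me3 difference between the last 5 kb of the gene and 5 to 10 kb past the end had opposite directions in the 2 lines over all 4589 ends, a log2 ratio of -0.058 in LLC-NR against 0.037 in LLC-R. With 1 library for each line, the difference was not tested. In the 1502 ends in unique sequence the ratio was -0.15 in LLC-NR, compared with -0.052 in LLC-R, below 0 in both, and dividing by the unique share of the windows gave -0.19 and -0.090.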

How the results depend on the processing

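No paired analysis was possible because there is 1 library per line and mark. Of the settings tried, 111 values stayed within their spread, 59 moved and 10 changed sign, and the cause was not tested unless the setting itself gives it. The 111 include the calls with a pseudocount of 0.5. At 1.5-fold this pseudocount selects the same ends as 1 for any whole counts, so those calls could not change and show nothing about stability. Ratios are log2 of body over far flank, in the order LLC-NR, LLC-R. With 10-kb windows on both sides they were 0.076 and 0.099 for H3K4me3, 0.064 and 0.063 for H3K9ac, -0.074 and 0.0025 for H3K27me3 and 0.20 and 0.098 for H3K36me3, a line difference of -0.11 for H3K36me3. With the last 2 kb against 8 to 10 kb they were 0.13 for H3K9ac in LLC-NR and 0.33 and 0.18 for H3K36me3. Genes of 50 kb or longer gave 0.28 and 0.15 for H3K36me3. Alternatives chosen after seeing the data follow. Ends with G+C within 1 percentage point gave 0.13 for H3K4me3 in LLC-R and 0.28 and 0.14 for H3K36me3. Ends in unique sequence gave -0.0034 and 0.036 for H3K4me3, -0.0035 and -0.0093 for H3K9ac, -0.15 and -0.052 for H3K27me3, 0.16 and 0.051 for H3K36me3, and -0.11 for the H3K36me3 line difference. Peaks divided by unique share gave -0.0058 and 0.020, -0.014 and -0.017, -0.19 and -0.090, and 0.18 and 0.033 for the marks in the same order.

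The H3K36me3 profile passed its midpoint at 1.25 kb in both lines at the ends with unique body and far flank, a choice that set no limit on the near flank. With 100-bp bins it passed its midpoint at 1.75 kb in LLC-R. Against windows at least 50 kb from genes, the body stood at 1.16 for H3K4me3 in LLC-NR, 1.24 and 1.21 for H3K9ac and 1.09 in both lines for H3K27me3, and the far flank at 1.07, 1.14 and 1.12, and 1.14 and 1.06. At 2-fold, ends called higher in body and in flank were 387 and 91 (LLC-NR) and 362 and 64 (LLC-R) for H3K4me3, 308 and 42 and 321 and 45 for H3K9ac, 295 and 160 and 253 and 48 for H3K27me3, and 470 and 49 and 283 and 34 for H3K36me3. The shares of all 9324 ends at 2-fold are not given here, so these counts show only the effect of the limit. The LLC-R over LLC-NR level of the body (log2) was 0.29, 0.67, -0.75 and -0.92 for H3K4me3, H3K9ac, H3K27me3 and H3K36me3 when scaled by mapped reads, and 0.044 and -0.22 for the last 2 when scaled by intergenic windows, compared with 0.019, -0.013, 0.026 and -0.14 when scaled by all peaks. A peak carries no height, so depth limits what a count can show, above all in the fullest libraries.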

Other observations

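The same ranking, chosen after seeing the data, was made for H3K4me3. In unique sequence the 3 ends with the largest H3K4me3 fall past the gene were Rdx, Psd4 and Tial1. Rdx, which encodes radixin and links actin to the plasma membrane, had 14, 14 and 10 H3K4me3 peaks over the last 5 kb, 0 to 5 and 5 to 10 kb past the end in LLC-NR against 13, 14 and 3 in LLC-R, and 23, 19 and 11 and 22, 22 and 18 of H3K36me3. Tial1, an RNA-binding protein of stress granules, had 14, 11 and 10 and 11, 12 and 3 H3K4me3 peaks. In the other direction Ppp2r5c, a regulatory subunit of protein phosphatase 2A, had 8, 16 and 20 in LLC-NR, compared with 13, 14 and 19 in LLC-R, although no other annotated gene lies within 10 kb past its end. The ends with more H3K27me3 in the body were Ctnna2, Sybu and Ccl1, and Ctnna2, a catenin of neurons, had 14, 13 and 7 in LLC-NR against 20, 16 and 15 in LLC-R.

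By the H3K36me3 difference between lines over all ends, the genes furthest apart were Obox2, Cyp2c68 and Gm2381 (LLC-R above LLC-NR) and Clec4a4, Skint6 and Tmem192 (below). The far flank of these was 0 to 21.6% unique except in Skint6, where it was 91.5%. Skint6 had 11 H3K36me3 peaks in the body and 3 in the far flank in LLC-NR, compared with 10 and 14 in LLC-R.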
